A study of Mus musculus with 8 samples.

Results

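CD8 T cells without effector transcripts are the T cells of the arthritic paw joint that carry CD8 mRNA and almost none of 4 effector mRNAs. They were chosen from unique molecular identifier (UMI) counts, where 1 UMI is 1 captured mRNA molecule. A member had at least 2 UMIs of Cd3d, Cd3e, Cd3g and Trac together, less than 5% of its UMIs from S100a8 and S100a9, and at most 2 UMIs of Cd79a, Cd79b and Ms4a1. It also had at least 1 UMI of Cd8a or Cd8b1 and fewer than 3 UMIs of Ccl5, Nkg7, Gzmk and Cxcr3 together. These rules found 122 cells among 10256 kept cells, of which 752 were T cells by the same T cell rule. The other T cells were 204 CD8-negative T cells, with fewer than 3 effector UMIs and no CD8 UMI, and 426 effector or memory T cells, with 3 or more effector UMIs.

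All mice were C57BL/6, 10 weeks old, and all had arthritis from K/BxN serum, 100 µL intraperitoneally on each of days 0, 2 and 9. They received, intravenously and on day 12, monocytes from the bone marrow of arthritic mice that had been kept for 90 min with 1 nM of maresin conjugate in tissue regeneration 3 (the Mono+MCTR3 group) or with vehicle (the Mono group). Paws were taken on day 22, dead cells were removed, and CD45+ leukocytes were sorted and sequenced in droplets, and MCTR3 itself was given to the transferred monocytes and not to the mice. Each group had 4 mice, numbered 1 to 4 here by the suffix of their cell barcodes, and the members numbered 21, 19, 4 and 13 in the Mono+MCTR3 mice and 18, 14, 6 and 27 in the Mono mice. Because Mono+MCTR3 mouse 3 and Mono mouse 3 held under 10 members each, a value of 1 gene there rests on few molecules.

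A naive CD8 T cell leaves the thymus and circulates between blood and lymphoid organs, held quiescent by factors such as KLF2, TCF-1 and LEF1. It enters lymph nodes by way of CCR7, leaves them through S1PR1, and needs interleukin-7 to survive. After meeting antigen it lowers these genes and acquires cytotoxic granule proteins, inflammatory chemokines and natural killer receptors, while a memory cell can keep or regain part of the homing programme.

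By mRNAs that the rule did not use, the members were T cells with little mRNA of the CD4 lineage. All 122 held a UMI of Trbc1 or Trbc2, the constant parts of the T cell receptor beta chain. The rule itself required a UMI of Cd8a or Cd8b1, so their presence is no support for the lineage. Both were seen in 81 cells, Cd8b1 alone in 36 and Cd8a alone in 5. Thus 117 cells carried mRNA of the beta chain that marks conventional CD8 T cells. Cd4, the co-receptor of helper T cells, was found in 3 members (2.46%), against 27.9% of CD8-negative T cells and 2.58% of effector or memory T cells. With every cell thinned to 1000 UMIs these shares were 1.64%, 11.3% and 0.711%. Cd40lg, the helper ligand for B cells, was seen in 2.46% of members and 22.5% of CD8-negative T cells, and the helper lineage factor gene Zbtb7b in 1.64% and 7.35%. The summed level of 12 CD4 and regulatory genes was 384 ± 191 UMIs per 1000000 UMIs (CPM) in members and 1355 ± 253 CPM in CD8-negative T cells (SD, n = 8 mice each), with no overlap between the classes. Of T cell receptor segments, an alpha chain V gene was seen in 10 members and a beta chain V gene in 8, of which Trbv12-2 made up 4, too few for an account of clones.

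The effector limit cut through a continuous range. Among T cells with a CD8 UMI, 33 had no effector UMI, 53 had 1 and 36 had 2, and these were the members. Just outside, 39 cells had 3, 32 had 4 and 19 had 5 effector UMIs, while 153 had 10 or more. The effector UMIs of the members were nearly all Nkg7, a granule membrane gene, with 111 UMIs in 80 cells, whereas Ccl5 gave 13 UMIs, Cxcr3 gave 1 and Gzmk none. The 90 CD8 T cells with 3 to 5 effector UMIs resembled the members in the homing genes. They held Ccr7 in 75.6% and Lef1 in 87.8% of cells, at a median of 4053 UMIs per cell, against 79.5% and 71.3% of members at a median of 3477.5. Dapl1, a gene of naive CD8 T cells, was seen in 70% of those cells and in 49.2% of members. CD8 T cells with 20 or more effector UMIs stood apart, with Ccr7 in 25.8%, Lef1 in 28.8%, Dapl1 in 11.4% and Ly6c2 in 84.1% of 132 cells. These shares describe cells placed by the rule and were not tested.

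**Figure D1:**
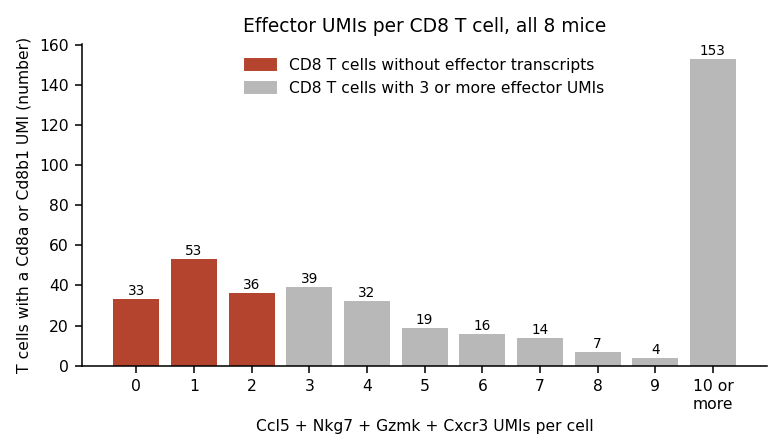
Number of T cells with a Cd8a or Cd8b1 UMI (y axis) by the summed UMIs of Ccl5, Nkg7, Gzmk and Cxcr3 in the cell (x axis), all 8 mice together. The red bars, 33, 53 and 36 cells, are the members, and the grey bars fall from 39 cells at 3 UMIs to 4 cells at 9 UMIs, with 153 cells at 10 or more.

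Within the members, Ccr7 and Lef1 were found in most cells and Ly6c2 in a minority. Ccr7 was found in 97 cells, Lef1 in 87 and Dapl1 in 60, and Ccr7 with Lef1 in 69. Ly6c2, a surface protein gene that rises on CD8 T cells with activation and memory, was seen in 34 members (27.9%), of which 27 also held Ccr7. Ccr9, the receptor for the thymic and gut chemokine CCL25, was seen in 14 members (11.5%), 1 of 204 CD8-negative T cells and 26 of 426 effector or memory T cells (6.10%), at median depths of 3477.5, 2840 and 3978.5 UMIs per cell, and these shares were not tested. Members with no effector UMI held Dapl1 in 24.2% of cells, against 60.4% of those with 1 and 55.6% of those with 2, at median depths of 3007, 3620 and 3729 UMIs.

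A few cells carried most of some transcripts. Lgals1 had 143 UMIs in 29 members and S100a6 176 UMIs in 26, and the 3 highest cells held 63.6% of each. The 13 members with a single CD8 UMI had Lgals1 at 2159 CPM, S100a4 at 1058 CPM and no Ly6c2 UMI, against 108, 83.0 and 264 CPM in the 109 members with 2 or more CD8 UMIs. All 4 Foxp3 UMIs and 33 of the 38 Trdc UMIs lay in these 13 cells. Of Trdc, the constant part of the delta chain, 28 UMIs came from 1 cell of Mono mouse 4 that also held 11 of the 13 Tcrg-C1 UMIs. The CD8 limit of a single UMI therefore admitted at least 1 cell with gamma delta receptor mRNA.

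Another 2 members held many mRNAs of monocytes and dendritic cells. Over 17 marker genes of these cells, 1 cell of Mono+MCTR3 mouse 2 had 686 and 1 cell of Mono mouse 4 had 506 UMIs, while the next highest member had 5 and the median was 1. The Mono+MCTR3 cell held 452 of the members' 651 Lyz2 UMIs, and the Mono cell 462 of 485 Cd74 UMIs and 142 of 147 H2-Aa UMIs. Scrublet, a doublet caller, marked 52 of the kept cells and none of the members. Results that rest on these cells are given with and without them.

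Of other lineages, neutrophil markers were present in the summed members, and natural killer markers were lower. The 14 neutrophil markers summed to between 2278 and 5347 CPM in Mono+MCTR3 mice and between 2802 and 5929 CPM in Mono mice. S100a8 and S100a9, which the rule limited, are among them and had 689 and 480 UMIs in members. Without these genes the list made up 0.113 ± 0.0386% of UMIs in members and 0.112 ± 0.0353% in CD8-negative T cells. All 14 had a UMI, in samples where neutrophils were most of the cells. Of 10 natural killer markers 4 were at 0, namely Ncr1, Klra8, Klra4 and Prf1, and the other 6 summed to between 133 and 921 CPM in Mono+MCTR3 mice and between 162 and 483 CPM in Mono mice. The gamma delta and innate genes Zbtb16, Il23r and Sox13 were at 0, as were the checkpoint receptor genes Lag3, Havcr2, Tigit and Cd244a. A CD8 UMI was seen in 0.782% of 1406 B cells (exact 95% interval 0.391% to 1.40%, median 2258 UMIs) and 0.482% of 5804 neutrophils (0.321% to 0.696%, median 1726 UMIs), types that should lack the gene. Both sets were picked to hold no UMI of Cd3d, Cd3e, Cd3g or Trac, and the neutrophils also no UMI of Cd79a, Cd79b or Ms4a1. Cells with stray mRNA of these T cell genes were thus left out, so the shares may understate the background. Intervals here cover counting error only.

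The members' share of the joint leukocytes did not separate the groups. They made up 1.57, 0.993, 0.397 and 1.72% of kept cells in the Mono+MCTR3 mice and 1.56, 0.887, 0.509 and 2.03% in the Mono mice. The means were 1.17 ± 0.602% and 1.25 ± 0.678% (SD, n = 4 each), a difference of -0.0771 percentage points (exact permutation test, two-sided, p = 0.914). Of all T cells they were 16.2, 15.6, 10 and 23.2% in the Mono+MCTR3 mice and 21.2, 13, 10 and 17.9% in the Mono mice, a difference of 0.730 points (same exact test, p = 0.857). Mouse 3 had the lowest share of each group and the groups overlapped throughout. With 4 mice a side this test cannot give a p below 0.0286.

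**Figure D2:**
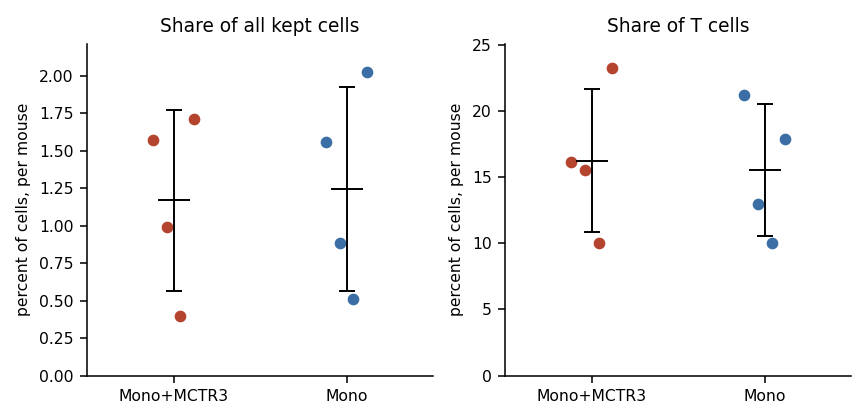
Members as a percentage of all kept cells (left) and of T cells (right), 1 point per mouse, with bars for mean and SD of 4 mice. Mono+MCTR3 and Mono mice overlap in both panels, from 0.397 to 1.72% and 0.509 to 2.03% of kept cells.

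Set against CD8-negative T cells of the same joints, the members had more Dnajc15, which encodes a mitochondrial co-chaperone, and more of 27 ribosomal protein mRNAs. Lgals1, S100a6 and Selenop had the largest negative fold changes that passed. Of 2 CD8-lineage genes that could be tested 1 was higher, Dapl1, which is also in the naive and homing list. Dapl1 and the lists were chosen with earlier results of these data known, so this call is no support for the lineage. Of 8 effector and memory genes 4 were lower. Klrd1, a receptor gene of effector and memory cells, and Ly6c2 were below the count filter over both classes and not tested. Both had the higher level in members in 8 of 8 mice. The core homing genes Ccr7, Lef1 and Klf2 did not pass the test. Sums per mouse were compared with edgeR's quasi-likelihood test with the mouse as a block, leaving out the genes of the rule, and 84 of 635 genes tested passed (13.2%), 34 higher (5.35%) and 50 lower (7.87%), with a median log2 fold change of -0.07 over all genes.

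Dnajc15 lay between 212 and 458 CPM (median 303) in members and between 61.7 and 161 CPM (median 107) in CD8-negative T cells. Every mouse had the higher value in members and the ranges did not overlap (log2 fold change 1.51, SE 0.23, adjusted p = 0.000717). It was called in each alternative in which it was tested, and it averaged 316 ± 97.3 CPM in members and 304 ± 34.2 CPM in effector or memory T cells (SD, n = 8 mice), higher in members in 4 of 8 mice. Dapl1 lay between 204 and 632 CPM (median 394) in members and between 89.8 and 764 CPM (median 221) in CD8-negative T cells, and was higher in members in 6 of 8 mice. Its fold change of 0.85 (SE 0.24, adjusted p = 0.0258) lost the threshold without Mono+MCTR3 mouse 2 (0.0552) or Mono mouse 1 (0.0706), 2 (0.0643) or 4 (0.0892). Tubb5, a tubulin chain, also rose (0.67, SE 0.16, adjusted p = 0.0102), with 573 ± 118 CPM in members and 361 ± 97.3 CPM in CD8-negative T cells, higher in 7 of 8 mice.

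The promoter letters of Dnajc15, whose levels did not overlap with those of CD8-negative T cells, and of Dapl1, the naive and homing gene that passed, are shown because TCF-1 and LEF1, both factors of naive T cells, bind a shared core. The 250 bases before the start of each gene were taken from RefSeq (GRCm38.p6), 5′ to 3′ on the gene's strand, and capitals mark CTTTGA or CTTTGT on either strand. They lie at chr2:59484403-59484652 on the plus strand for Dapl1 and at chr14:77874918-77875167 on the minus strand for Dnajc15.
Dapl1: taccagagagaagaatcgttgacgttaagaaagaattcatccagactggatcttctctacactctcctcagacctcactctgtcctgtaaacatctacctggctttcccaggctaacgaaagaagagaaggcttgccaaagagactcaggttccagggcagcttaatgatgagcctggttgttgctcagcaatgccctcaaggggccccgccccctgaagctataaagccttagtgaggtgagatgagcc
Dnajc15: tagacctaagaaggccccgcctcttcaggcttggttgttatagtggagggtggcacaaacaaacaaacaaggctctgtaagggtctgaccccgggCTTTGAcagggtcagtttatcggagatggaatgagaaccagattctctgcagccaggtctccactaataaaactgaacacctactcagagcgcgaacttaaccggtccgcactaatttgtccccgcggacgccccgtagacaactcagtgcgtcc
Dapl1 had no such letters in the window and Dnajc15 had them once, 155 bases before the start. Of 32817 mouse promoter windows of this length, 27.6% held either, so the match is a description only.

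Other genes on the higher side were smaller in size or less stable. The small nucleolar RNA host gene Zfas1 (0.90, adjusted p = 0.0253), the peptidase gene Klk8 (0.79, adjusted p = 0.0326) and the mitochondrial ADP/ATP carrier gene Slc25a4 (0.71, adjusted p = 0.0403) depended on which mice were in the fit. Of the fits that left out 1 mouse, Zfas1 lost the call in 2 of the 4 in which it was tested (without Mono mouse 1 or 3). Klk8 lost it in 7 of 8, all but that without Mono+MCTR3 mouse 3, and Slc25a4 in 6 of 8, all but those without Mono+MCTR3 mouse 2 or 3. Their adjusted p reached 0.0592, 0.0988 and 0.155 for Zfas1, Klk8 and Slc25a4. Ribosomal protein mRNAs, which encode the subunits of the ribosome, were the largest group on this side. Of 81 tested, 27 were higher, none was lower and 79 had a positive fold change, with a list median of 0.15 against -0.07 over all genes. They made up 45.1 ± 1.73% of the UMIs of members and 40.6 ± 2.62% of those of CD8-negative T cells, higher in members in 8 of 8 mice. Rpl15 was an example, with 2285 ± 416 CPM in members and 1771 ± 327 CPM in CD8-negative T cells (0.36, SE 0.08, adjusted p = 0.00835). With library totals in place of TMM scaling 31 were higher and none lower, whereas none passed without the filter on low counts or with members that held no effector UMI.

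On the lower side stood genes of effector and memory T cells that the rule did not use. Lgals1, which encodes galectin-1, lay between 0 and 586 CPM (median 167) in members and between 206 and 1133 CPM (median 779) in CD8-negative T cells, and was lower in members in 8 of 8 mice (-1.50, SE 0.23, adjusted p = 0.000717). S100a6, a calcium-binding protein gene of memory cells, lay between 0 and 753 CPM (median 119) in members and between 82.2 and 1917 CPM (median 654) in CD8-negative T cells, lower in members in 7 of 8 mice (-1.45, SE 0.27, adjusted p = 0.00201). S100a4 (-1.25, adjusted p = 0.0155) and S100a11 (-0.79, adjusted p = 0.00617) followed. Of 8 effector and memory genes tested 4 were lower, all 8 had a negative fold change and the list median was -0.70. In the 33 members with no effector UMI, Lgals1 stood at -0.25 (adjusted p = 0.942) and S100a6 at -0.22 (adjusted p = 0.932), and no gene of 264 tested passed.

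Selenop, the gene of the selenium carrier selenoprotein P, lay between 47.2 and 203 CPM (median 105) in members and between 123 and 423 CPM (median 323) in CD8-negative T cells (-1.33, SE 0.21, adjusted p = 0.000722, lower in 8 of 8 mice). Gimap4, a GTPase of T cell survival and turnover, lay between 47.2 and 288 CPM (median 175) in members and between 278 and 482 CPM (median 359) in CD8-negative T cells (-1.05, SE 0.19, adjusted p = 0.00147). Both were called in each alternative in which they were tested. Ass1, argininosuccinate synthase (-1.13, adjusted p = 0.0155), and Rgs2, a regulator of G protein signalling (-1.05, adjusted p = 0.00639), also fell, and kept the call in every fit without 1 mouse that tested them, 4 for Ass1 and 8 for Rgs2. Dusp10, a MAP kinase phosphatase (-1.04, adjusted p = 0.0466), the lysolipid receptor gene Gpr132 (-1.01, adjusted p = 0.0233) and Serinc3 (-0.96, adjusted p = 0.0247) were called less firmly. Without 1 mouse, Dusp10 lost the call in all 7 fits that tested it (adjusted p up to 0.144) and Gpr132 in 1 of 4, that without Mono mouse 2 (0.054). Serinc3 lost it in 4 of 7, without Mono+MCTR3 mouse 1 or Mono mouse 2, 3 or 4 (up to 0.093).

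Immediate early genes, the first response to stimulation or to tissue handling, were lower as well. Of 12 tested 4 were lower, 11 had a negative fold change and the list median was -0.33. Junb, a subunit of the AP-1 factor, lay between 858 and 2343 CPM (median 1199) in members and between 1409 and 3517 CPM (median 2079) in CD8-negative T cells, and was lower in members in 8 of 8 mice (-0.73, adjusted p = 0.00198). Jund averaged 647 ± 254 CPM in members and 1236 ± 358 CPM in CD8-negative T cells (-0.88, adjusted p = 0.00201). Dusp1 (-0.65, adjusted p = 0.00931) and Btg2 (-0.59, adjusted p = 0.0423) were the others, and Btg2 lost the call in 7 of the 8 fits without 1 mouse, all but that without Mono+MCTR3 mouse 3 (up to 0.144). Fos (-0.13, adjusted p = 0.711) and Jun (-0.25, adjusted p = 0.352) did not pass.

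Of 10 genes of the T cell receptor complex and its signalling that could be tested, 3 were lower. They were Trbc2 (-0.34, adjusted p = 0.036), the adhesion receptor gene Cd2 (-0.70, adjusted p = 0.036) and the co-stimulatory receptor gene Cd28 (-0.69, adjusted p = 0.0403). Trbc2 and Cd2 kept the call only without Mono mouse 1 or 3 among the 8 fits without 1 mouse, and Cd28 lost it in 5, those without Mono+MCTR3 mouse 1 or 2 or Mono mouse 2, 3 or 4. The adjusted p reached 0.124 for Trbc2, 0.105 for Cd2 and 0.172 for Cd28, each without Mono+MCTR3 mouse 1. The integrin chain gene Itgb7 (-0.58, adjusted p = 0.0377) and the interferon-inducible Slfn2 (-0.62, adjusted p = 0.0264) also passed. Itgb7 lost the call in 6 of 8 such fits, all but those without Mono+MCTR3 mouse 2 or 3 (up to 0.0962), and Slfn2 in 1, that without Mono mouse 1 (0.0899).

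Among 17 naive and homing genes tested, Dapl1 was the 1 that passed, 10 had a negative fold change and the list median was -0.23. Ccr7 lay between 347 and 2083 CPM in members (fold change 0.14, adjusted p = 0.737), and turned to -0.03 without Mono+MCTR3 mouse 3. Lef1 stood at -0.29 (adjusted p = 0.298), Tcf7 at -0.60 (adjusted p = 0.0523), Klf2 at -0.31 (adjusted p = 0.0535), Il7r at -0.46 (adjusted p = 0.172) and S1pr1 at -0.42 (adjusted p = 0.179). The lower Tcf7 and Klf2 passed once the 5 cells of both classes with 10 or more monocyte and dendritic UMIs were left out. Some genes that were nearly silent in CD8-negative T cells were below the filter on low counts over both classes together, and these are given as levels. Klrd1, which encodes the receptor chain CD94, averaged 226 ± 110.2 CPM in members and 14.1 ± 16.7 CPM in CD8-negative T cells (SD, n = 8 mice), without overlap. Cd7 averaged 157 ± 64.0 and 26.3 ± 24.3 CPM and the protease gene Ctsw 138 ± 59.4 and 28.7 ± 28.6 CPM in members and CD8-negative T cells. Ly6c2 averaged 261 ± 185 CPM in members and 41.6 ± 58.6 CPM in CD8-negative T cells. Klrk1, a receptor gene that was not tested here either, went the other way. It had 3 UMIs in 2 of 122 members (1.64%) and 46 UMIs in 13 of 204 CD8-negative T cells (6.37%).

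**Figure D3:**
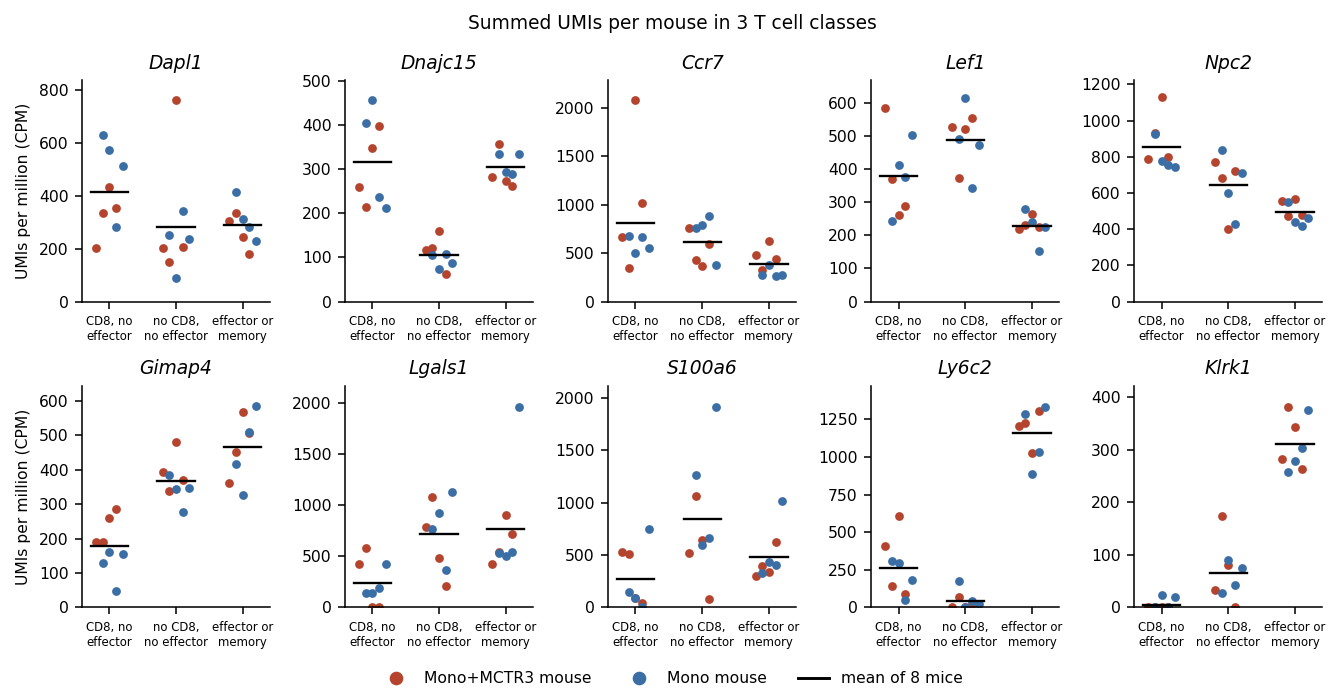
Summed CPM (y axis) of 10 genes in 3 T cell classes (x axis), members at the left of each panel, 1 point per mouse, red for Mono+MCTR3 and blue for Mono, with a bar at the mean of 8 mice. Dnajc15 separates members (212 to 458 CPM) from CD8-negative T cells (61.7 to 161 CPM), and Npc2 and Ly6c2 separate members from effector or memory T cells.

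Set against effector or memory T cells, the members had more Ccr7, Lef1, Igfbp4 and Npc2 and far less of the natural killer receptor and cytokine genes Klrk1, Xcl1 and Il2rb. Both classes were defined by effector mRNA, so genes that are expressed together with Ccl5, Nkg7, Gzmk and Cxcr3 are not independent of the rule. By the same edgeR test 70 of 983 genes passed (7.12%), 30 higher (3.05%) and 40 lower (4.07%), with a median log2 fold change of -0.04. The effector or memory class also holds T cells without a CD8 UMI, and with these left out of it 17 of 783 genes passed.

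Npc2, a carrier of cholesterol out of lysosomes, lay between 743 and 1128 CPM (median 793) in members and between 419.6 and 568 CPM (median 476) in effector or memory T cells, with no overlap (0.79, SE 0.12, adjusted p = 9.65e-05). It was also higher against effector or memory T cells with a CD8 UMI (0.57). Ccr7 lay between 347 and 2083 CPM (median 664) in members and between 261 and 627 CPM (median 353) in effector or memory T cells, and was higher in members in 8 of 8 mice (0.93, SE 0.16, adjusted p = 0.000657). Lef1 was higher in 6 of 8 mice, between 243 and 586 CPM (median 374) in members and between 151 and 279 CPM (median 229) in effector or memory T cells (0.80, SE 0.19, adjusted p = 0.0101). Its adjusted p was 0.0524 without Mono+MCTR3 mouse 1 and 0.0647 without Mono mouse 4. Igfbp4, a binding protein of insulin-like growth factors found in naive T cells, lay between 44.2 and 608 CPM (median 206) in members and between 41.3 and 124 CPM (median 78.9) in effector or memory T cells (1.19, SE 0.28, adjusted p = 0.0103). Against CD8-bearing effector or memory T cells alone the fold changes were 0.55 for Ccr7 (adjusted p = 0.102), 0.45 for Lef1 (adjusted p = 0.263) and 0.65 for Igfbp4 (adjusted p = 0.249).

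Of 18 naive and homing genes tested 5 were higher, 14 had a positive fold change and the list median was 0.48, against -0.04 over all genes. The list was chosen with earlier results of these data known, so these counts are a description and no independent support for a naive state. Beside Ccr7, Lef1, Igfbp4 and Npc2, the gene of the list that passed was Gm8369 (0.63, adjusted p = 0.0464). It lost the call in 7 of the 8 fits without 1 mouse, all but that without Mono mouse 3 (up to 0.129). Dapl1 (0.53, adjusted p = 0.0878), S1pr1 (0.54, adjusted p = 0.104), Satb1 (0.44, adjusted p = 0.242) and Il7r (0.31, adjusted p = 0.381) did not pass. Tcp11l2 (1.01, adjusted p = 0.00877), the PI3-kinase inhibitor gene Pik3ip1 (0.83, adjusted p = 0.0176), the thioredoxin inhibitor gene Txnip (0.75, adjusted p = 0.0395) and the receptor gene Slamf6 (0.85, adjusted p = 0.0354) were higher in members. Txnip lost the call in 5 fits, without Mono+MCTR3 mouse 1, 3 or 4 or Mono mouse 2 or 4 (up to 0.132), and Slamf6 in 3, without Mono+MCTR3 mouse 1 or 4 or Mono mouse 1 (up to 0.127). Of the ribosomal protein genes 11 of 81 were higher, none was lower and the list median was 0.13, but without the filter on low counts, where the median of all genes was -0.35, 6 were lower and none higher. With members that held no effector UMI none of 81 passed and the list median was -0.07. Their share was 45.1 ± 1.73% of UMIs in members and 41.9 ± 2.93% in effector or memory T cells, and none of 81 passed when only CD8-bearing cells were used.

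Lyz2 led the list of higher genes (1.82, adjusted p = 0.0197), with 5598 CPM in Mono+MCTR3 mouse 2, 1448 CPM in Mono mouse 4 and at most 283 CPM in the other mice. Its fold change was 0.04 (adjusted p = 0.936) without the cells rich in monocyte and dendritic mRNA, 1.01 (adjusted p = 0.0733) without Mono+MCTR3 mouse 2 and 1.5 (adjusted p = 0.185) without Mono mouse 4. Gpx1, a glutathione peroxidase gene (0.86, adjusted p = 0.0457), fell to 0.40 (adjusted p = 0.245) without these cells. It was 0.52 (adjusted p = 0.215) without Mono+MCTR3 mouse 2 and 0.72 (adjusted p = 0.209) without Mono mouse 4, and was also lost without Mono+MCTR3 mouse 3 or 4 or Mono mouse 3 (0.0512 to 0.0547). In the same setting 108 of 939 genes passed, 58 higher and 50 lower, of which 68 were among the 70.

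The lower side held the largest differences. The chemokine gene Xcl1 had 2 UMIs in all members and 699 in effector or memory T cells, a ratio of CPM of 0.0109 (exact 95% counting interval 0.00132 to 0.0396). Klrk1, which encodes the activating receptor NKG2D, had 3 and 537 UMIs in members and in effector or memory T cells, a ratio of 0.0213 (0.00438 to 0.0626). It lay between 0 and 22.9 CPM in members and between 258 and 381 CPM in effector or memory T cells.

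Ly6c2 lay between 47.2 and 608 CPM (median 241) in members and between 888 and 1335 CPM (median 1217) in effector or memory T cells, without overlap (-2.31, SE 0.22, adjusted p = 1.13e-07). Il2rb, the shared receptor chain for interleukins 2 and 15, averaged 32.5 ± 30.0 CPM in members and 221 ± 32.5 CPM in effector or memory T cells (-2.48, adjusted p = 4.99e-06). The protease inhibitor gene Ctla2a (-2.75, adjusted p = 1.92e-06), the integrin beta 2 gene Itgb2 (-1.53, adjusted p = 0.000376) and Ctsw (-1.34, adjusted p = 0.000243) were lower too. So were the long non-coding RNA AW112010 (-1.22, adjusted p = 1.64e-05) and Gimap4 (-1.35, adjusted p = 5.59e-05). Ly6c2, Ctla2a, Itgb2, Ctsw, AW112010 and Gimap4 also passed as lower against effector or memory T cells with a CD8 UMI, at -2.11 for Ly6c2, -2.33 for Ctla2a, -1.21 for Ctsw and -1.12 for Gimap4. Of 16 effector and memory genes tested 8 were lower, 15 had a negative fold change and the list median was -0.89.

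Klrd1 (-0.83, adjusted p = 0.012) and Cd7 (-0.90, adjusted p = 0.0111), both above the level of CD8-negative T cells in 8 of 8 mice, were lower than in effector or memory T cells. In Klrd1 the adjusted p was 0.0854 without Mono mouse 4. Lgals1 (-1.38, adjusted p = 0.0101), Cd2 (-0.67, adjusted p = 0.0194), the membrane protein gene Ms4a4b (-0.46, adjusted p = 0.0194) and the chemokine gene Ccl4 (-2.12, adjusted p = 0.0194) were lower, and without Mono mouse 4 reached 0.101, 0.101, 0.122 and 0.136. Ms4a4b was also lost without Mono+MCTR3 mouse 1 (0.0616) or Mono mouse 3 (0.0679), and Ccl4 without Mono mouse 3 (0.0529). Without Mono+MCTR3 mouse 2 the fold change of Ccl4 was -5.04. Of the 43 Ccl4 UMIs of the members, 37 lay in 1 cell of Mono+MCTR3 mouse 2. Of immediate early genes 2 of 14 were lower, the phosphatase gene Dusp2 (-1.31, adjusted p = 0.000316) and the nuclear receptor gene Nr4a1 (-0.81, adjusted p = 0.0464), of which Nr4a1 lost the call in 7 of 8 fits without 1 mouse, all but that without Mono+MCTR3 mouse 2 (up to 0.138). Ifngr1, a chain of the interferon gamma receptor (-0.60, adjusted p = 0.0317), lost it in 4, without Mono+MCTR3 mouse 1 or 3 or Mono mouse 1 or 3 (up to 0.0888).

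**Figure D4:**
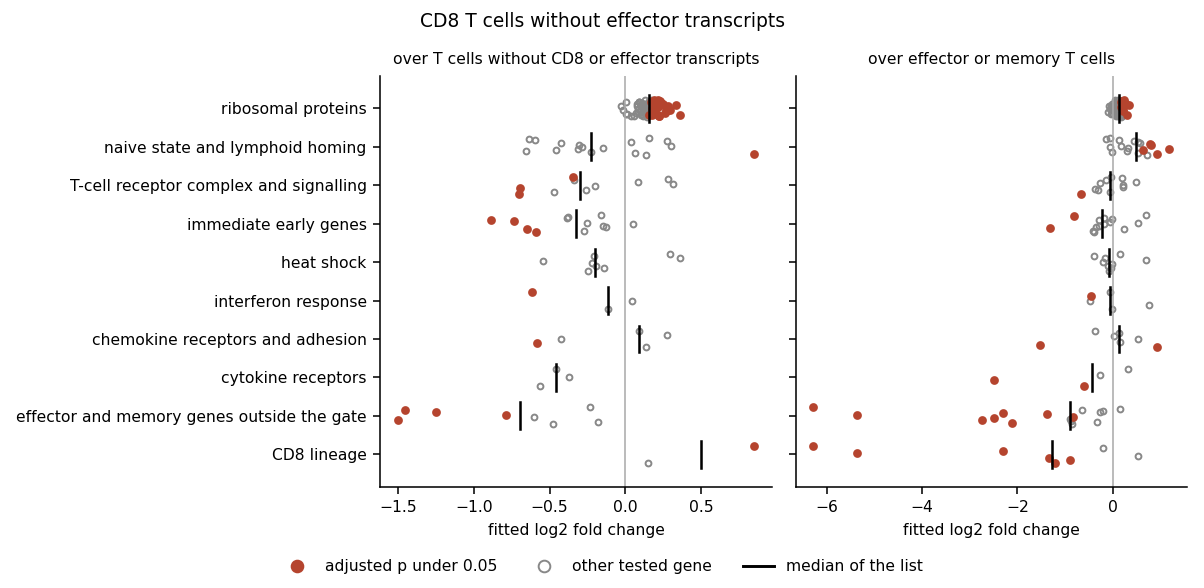
Fitted log2 fold change (x axis) of the tested genes of 10 lists (y axis), members over CD8-negative T cells (left) and members over effector or memory T cells (right), filled where the adjusted p was under 0.05, with a bar at the median of each list. Ribosomal protein genes lie mostly above 0 in both panels, though below 0 on the right without the filter on low counts, while naive and homing genes have a median of -0.23 on the left and 0.48 on the right.

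Both comparisons use the same member libraries, so their calls are not independent. They shared 6 higher genes, which are 17.6% of the 34 and 20% of the 30, and 5 of them were ribosomal protein genes. They shared 8 lower genes, 16% of the 50 and 20% of the 40, among them Cd2, Gimap4, Lgals1 and the actin-binding genes Tmsb4x and Pfn1.

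Between Mono+MCTR3 and Mono mice no gene of the members passed the test. By edgeR 0 of 546 genes had an adjusted p under 0.05 (0%), 15 had an unadjusted p under 0.05, of which 7 were higher and 8 lower, and DESeq2 and the edgeR likelihood ratio test also gave 0. The median fold change was -0.01. On counts simulated at these depths the test found 74.4% of changes of 1 and 100% of changes of 2 on the log2 scale. The simulation gave all genes the same dispersion, and changed 78 and 104 of the 546 genes by these sizes. The real genes differed in their spread between mice, so these rates need not hold for them. Changes of this size or smaller could have been missed.

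Dapl1 had 204, 335, 434 and 354 CPM in the Mono+MCTR3 mice and 632, 572, 283 and 512 CPM in the Mono mice. The highest Mono+MCTR3 value was below 3 of the Mono values, and the groups overlapped through Mono mouse 3 (-0.77, SE 0.29, adjusted p = 0.999). Ccr7 had 667, 347, 2083 and 1018 CPM in the Mono+MCTR3 mice and 680.3, 504, 661 and 550.4 CPM in the Mono mice, so that the groups overlapped, and the highest value came from the 4 cells of Mono+MCTR3 mouse 3 (0.49, SE 0.41, adjusted p = 0.999). Lef1 (0.04), Tcf7 (0.06), Satb1 (0.20), Il7r (0.14), S1pr1 (0.02), Klf2 (-0.49) and Igfbp4 (0.33) did not pass either, nor did the lineage genes Cd8a (-0.46), Cd8b1 (-0.24), Cd3e (-0.31), Trac (0.11) and Ly6c2 (0.14).

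The genes with the smallest p values are given as values that did not pass, all with an adjusted p of 0.999. Picking genes by p value favours those whose groups do not overlap. Genes without overlap were not counted over all genes tested, so the separation of those below is a description only. Trbc1, the first of the constant beta chain genes, had 1212, 1339.8, 1736 and 1394 CPM in the Mono+MCTR3 mice and 583, 1145, 519 and 888 CPM in the Mono mice, without overlap (0.76, SE 0.24). Its 473 UMIs came from 74 cells, 40 of them from 1 cell of Mono+MCTR3 mouse 2, and a T cell normally uses either Trbc1 or Trbc2. Prdx6, a peroxiredoxin gene, had 463, 323, 694 and 376 CPM in the Mono+MCTR3 mice and 275, 183, 142 and 261 CPM in the Mono mice, also without overlap (0.83, SE 0.29). H3f3b (0.52), Ndufa13 (0.64) and D8Ertd738e (0.59) were next.

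On the other side Rpl23a had 7367, 7094, 6856 and 7433 CPM in the Mono+MCTR3 mice and 8423, 8218, 9018 and 7908 CPM in the Mono mice, with no overlap (-0.22, SE 0.07). Arpp19, a phosphatase inhibitor gene, had 177, 203, 174 and 221 CPM in the Mono+MCTR3 mice and 340.2, 252, 236 and 319 CPM in the Mono mice, again without overlap (-0.61, SE 0.24). Arhgap45 (-0.72) and Arl6ip5 (-0.97) completed the set. The 8 heat shock genes tested all had a negative fold change, with a median of -0.53, but without Mono mouse 2 the median was -0.08 and 2 were positive. The summed level of 10 heat shock genes was 6141, 6675, 9199.8 and 9866 CPM in the Mono+MCTR3 mice and 8439, 17420.2, 9065 and 6469 CPM in the Mono mice, with Mono mouse 2 above all others. Hspa1a, the stress-induced HSP70 gene, had 259, 981, 1909 and 1836 CPM in the Mono+MCTR3 mice and 1523, 4326, 1605 and 1004 CPM in the Mono mice, with overlap and the highest value in Mono mouse 2 (-0.94, adjusted p = 0.999). Of 11 immediate early genes 3 were positive and 8 negative (median -0.30), of 81 ribosomal protein genes 40 were positive and 41 negative (median -0.01), and of 15 naive and homing genes 10 were positive and 5 negative (median 0.04).

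**Figure D5:**
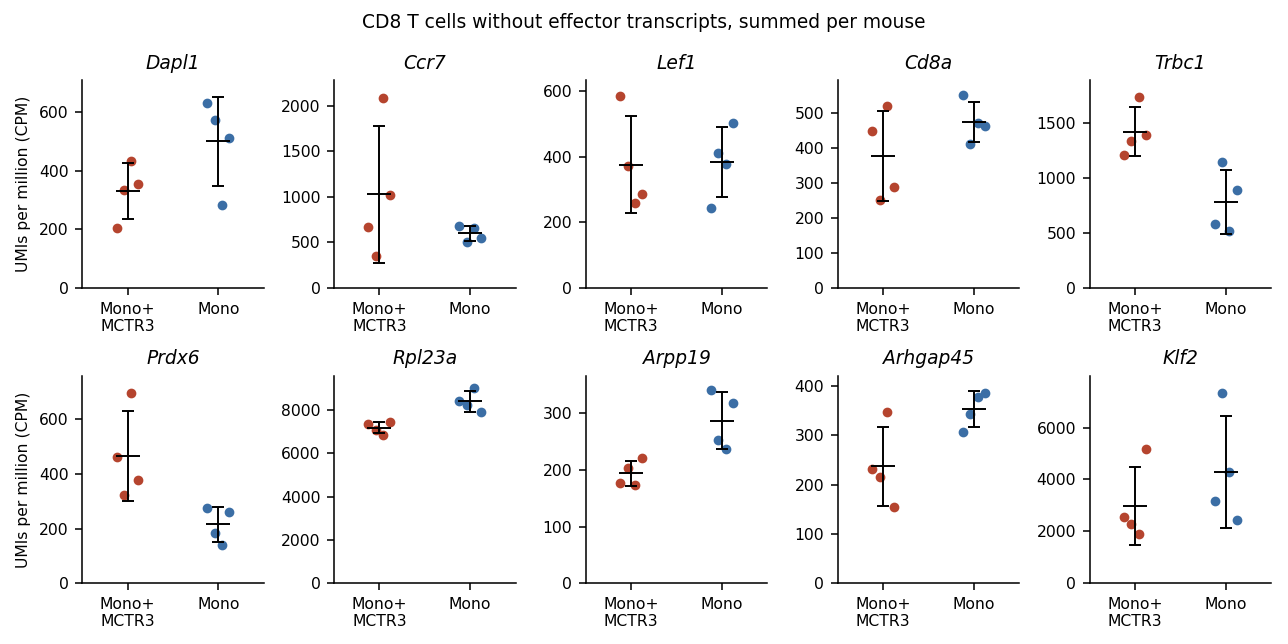
Summed CPM of the members (y axis) for 10 genes, Mono+MCTR3 mice at the left and Mono mice at the right of each panel, 1 point per mouse with mean and SD of 4 mice. Trbc1, Prdx6, Rpl23a and Arpp19, picked for small p values, do not overlap between the groups, yet none of the genes passed the test (adjusted p = 0.999).

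Whether the groups differed in another way in members than in CD8-negative T cells was tested as an interaction, and 1 of 837 genes passed (0.119%). It was Cd74, the invariant chain of class II antigen presentation (-4.45, SE 0.72, adjusted p = 0.00728). Its level in members was 27.2, 167, 0 and 0 CPM in the Mono+MCTR3 mice and 64.8, 22.9, 0 and 4480.1 CPM in the Mono mice. The last value belongs to Mono mouse 4, where 1 cell held 462 UMIs of it. It passed in each of the 6 fits without 1 mouse that tested it. It was below the count filter, and so not tested, without Mono+MCTR3 mouse 2, without Mono mouse 4 and without the cells rich in monocyte and dendritic mRNA, and by DESeq2 its adjusted p was 0.424.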

How the data were processed

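Single cell 3′ RNA sequencing of CD45+ paw leukocytes was available for 4 Mono+MCTR3 and 4 Mono mice. Per group, the authors deposited a table of UMI counts from Cell Ranger and GRCm38 (version numbers not given in the sources used here). Barcode suffixes separated the mice of a group but did not show which labelled mouse each was. Barcodes were kept if they had 250 to 3000 genes, 500 or more UMIs and no more than 5% mitochondrial UMIs (10256 of 10538, 758 to 1913 per mouse). Members had 443930 UMIs in all. Pairs of mice, within or across the groups, shared 0 to 7 barcodes, none of them a member's. Doublets were called with Scrublet (0.507% of kept cells) and not removed. P-values between the groups rest on the spread between these mice. Those between classes and of the interaction rest on the spread of the class difference over the mice.

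Sums of UMIs per mouse and class were tested in edgeR 4.0.16 under R 4.3.3 (TMM, filterByExpr, quasi-likelihood, Benjamini-Hochberg adjusted p under 0.05 over all genes tested). Between classes the mouse was a block, since both classes come from the same 8 animals, and the rule's genes were left out. An SE is the log2 fold change over the root of F. CPM are a gene's UMIs scaled to 1000000 for the summed class of each mouse. DESeq2 1.42.0 was an alternative. Shares were compared with exact permutation tests, and shares of cells with a UMI were recomputed after thinning cells to 1000 UMIs. Python 3.11.15, scanpy 1.11.5, scipy 1.17.1, numpy 2.4.6, pandas 2.3.3 and matplotlib 3.10.9 were used. The edgeR step was tested on simulated data, in which all genes had the same dispersion and the classes of a mouse shared no mouse effect. In the comparison with CD8-negative T cells it recovered 94.2% of changes of 1 on the log2 scale (644 genes, 4 of 198 calls false), and in that with effector or memory T cells 87.8% (993 genes, 9 of 197 false). Changes of 1 and 2 were given to 103 and 97 of the 644 genes and to 90 and 110 of the 993. These rates need not hold for the real genes.

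Members and gene lists were chosen with earlier results of these data known, Dapl1 among them. Named genes are the 10 largest passing changes in each direction, or the 5 smallest p where none passed, passing list members, each list's genes with most UMIs, and a set of lineage and homing genes. Untested levels, Ccr9, Foxp3, Trdc, Tmsb4x, Pfn1 and the genes of single cells were named after their values were seen. Promoters are RefSeq's and coordinates GRCm38. Results of some genes are not reported here.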

Additional observations from a re-analysis of the deposited data

Results flagged for a closer look

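Il7r in the members of Mono+MCTR3 mouse 4 was at 420.3 CPM, farther from the other 3 mice of its group (204, 215 and 174 CPM) than they were from each other. Cd4 in the members of Mono mouse 1 was at 16.2 CPM, while the other 3 Mono mice were at 0, and this value is a single UMI. Such gaps were looked for in 58 groups of 4 mice and 2 were found. For normally distributed values chance alone gives about 1 in 20 groups, so 2 are no more than chance would give. A single UMI beside 3 values of 0 is always flagged, so that rate does not hold for Cd4. The group difference of Cd74 differed between members and CD8-negative T cells (interaction -4.45, adjusted p = 0.00728 by edgeR), and without the T cells that held 10 or more monocyte and dendritic UMIs Cd74 was below the count filter and not tested.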

How the results depend on the processing

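No paired analysis was possible because the labels number the mice of the Mono+MCTR3 and Mono groups differently, the groups are different animals, and the suffix that numbers the mice 1 to 4 here only orders them within a table. Without the mouse as a block, 32 genes passed against CD8-negative T cells and 43 against effector or memory T cells; leaving out each mouse in turn gave 39 to 87 and 37 to 102 calls. The lowest counts were 39 without Mono+MCTR3 mouse 1, 40, 45, 51 and 42 without Mono mouse 1, 2, 3 and 4 against CD8-negative T cells, and 42, 43 and 37 without Mono+MCTR3 mouse 4, Mono mouse 3 and Mono mouse 4 against effector or memory T cells. DESeq2 called 46 genes against CD8-negative T cells. Members with no effector UMI gave 0 calls (264 genes tested) and 11 calls (625 tested), each with fewer cells and genes than the 122 members. Without the filter on low counts 257 genes passed against effector or memory T cells, 8 of 10012 between the groups and 7 in the interaction, and the median fold change of all genes against effector or memory T cells was -0.35, with 6 ribosomal protein genes called lower and none higher. The interaction gave 0 calls by DESeq2, 2 by the likelihood ratio test and 0 to 5 without 1 mouse. Chosen after seeing the data, the removal of T cells with 10 or more monocyte and dendritic UMIs gave 108 calls against effector or memory T cells and 0 in the interaction, leaving out mice with under 10 members gave 44, and effector or memory T cells with a CD8 UMI gave 17. The cause of these shifts was not tested.

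Directions turned for Lef1 between the groups without the filter (-0.026), for Cd8b1 (0.24) and Trac (-0.048) with no effector UMI, and for Ly6c2 without mice of few members (-0.18). They also turned for Lef1 (0.0094, no effector UMI) and Ccr7 (-0.000801, without mice of few members) against CD8-negative T cells, and for Dapl1 (-0.42, no effector UMI) against effector or memory T cells; none of these had passed. The difference in share of T cells was -0.0714 points with at least 2 CD8 UMIs (exact permutation p = 1.0) and between -1.60 and 2.81 without 1 mouse, and that of kept cells between -0.323 and 0.183. Without 1 mouse the fold change between the groups ran from 0.13 to 0.83 for Ccr7, -0.91 to -0.074 for Klf2, -0.26 to 0.28 for Lef1, -0.040 to 0.36 for Trac and -0.36 to 0.45 for Ly6c2, and for Ccr7 against CD8-negative T cells from -0.034 to 0.27. The share of members with a Dapl1 UMI, Mono+MCTR3 minus Mono, was -4.37 points at 1000 UMIs per cell, 5.55 unthinned and -9.09 at 750. For Ccr7 it was -2.13, 5.25 and -3.04 points and for Lef1 1.47, 15.3 and 18 points in the same order. Depth limits these results, with members of 1 mouse as few as 4 cells.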
